A study of Mus musculus with 12 samples.

Results

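The nuclear pore genes described here are the genes on the array whose single symbol in the platform annotation is Nup followed by a number, or is Tpr, Pom121, Ndc1, Rae1, Seh1l, Sec13, Aaas or Ranbp2. The rule found 26 genes among the 18193 genes with a probe set of their own, and Tpr was not among them. A total of 67 probe sets carried these 26 symbols. The nuclear pore complex is the channel through which proteins, ribosomal subunits and mRNA pass between nucleus and cytoplasm. Its proteins, the nucleoporins, are present in many copies each and are arranged in layers: a Y-shaped coat complex and an inner ring form the scaffold, membrane nucleoporins anchor it, channel nucleoporins with phenylalanine-glycine repeats form the barrier, and filaments reach into the cytoplasm and, as the basket, into the nucleus. In dividing vertebrate cells the pores are taken apart at mitosis and rebuilt, and new pores are inserted as the nucleus grows, whereas in cells that no longer divide the scaffold nucleoporins are among the longest-lived proteins.

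RNA came from neural stem cells of the subventricular zone, where new neurons arise in the adult forebrain, sorted by flow cytometry from male C57B6J mice, whose age is given only as adult. They were sorted in 3 states, namely activated, quiescent, and quiescent at 48 h after irradiation, and no further allele or treatment is named for any of them. Each state had 4 samples in the labels, and values were analysed for 3 quiescent arrays (replicates 1, 2 and 4), 4 irradiated quiescent arrays and 3 activated arrays (replicates 1 to 3). The radiation dose, the sorting markers, the animals per sample, and whether replicates came from separate animals were not stated (not given in the sources used here), so p-values measure only the spread between these samples. Values are intensities on a linear scale, the brightness of a probe set on an Affymetrix MOE 430 2.0 array. Low values pile up under an intensity of 10, and a gene there (at most 10) is described as near the lower limit. These are sorted cell populations measured in bulk, so fewer cells that express a gene and less of its RNA per cell cannot be told apart.

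The sorted states were checked against marker lists by the summed intensity of each list. The 6 cycling markers summed to 27683 to 32588 on activated arrays, to 52 to 238 on quiescent arrays and to 45 to 70 on irradiated arrays, where Top2a, Aurkb and Cdk1 were near the lower limit on every quiescent and irradiated array. The 7 markers of quiescent stem cells and astroglia summed to 70464 to 76606 on quiescent, 70152 to 76487 on irradiated and 12545 to 19484 on activated arrays. Among them Gfap, the astroglial filament, varied from 7 to 2424 between arrays of the quiescent states. Nes, counted below with the progenitor markers, was low in both quiescent states. It was at 11, 6 and 6 on quiescent, 7, 6, 10 and 6 on irradiated and 120, 283 and 143 on activated arrays. Markers of other cells moved with the states too. The 5 neuroblast markers summed to 17665 to 23248 on activated arrays against 324 to 1883 on quiescent and 197 to 1225 on irradiated arrays, and the 4 measured of 5 progenitor markers to 12898 to 14233 against 972 to 2515 and 343 to 1767. The 5 measured of 6 oligodendrocyte markers ran the other way, at 18165 to 25251 on quiescent, 15531 to 21829 on irradiated and 1728 to 3800 on activated arrays. So did Ttr, the one choroid plexus marker with high values, which was near the lower limit on all activated arrays while that list of 4 summed to 10787 to 17858 on quiescent and 10007 to 20057 on irradiated arrays. The 5 neuron markers reached 13612 on quiescent replicate 1, against a highest sum of 3990 on irradiated and 760 on activated arrays. The 5 microglia markers reached 4623 on activated replicate 3, against 1420 on quiescent and 626 on irradiated arrays. The 5 endothelial markers summed to at most 622 and the 4 ependymal markers to at most 43 on any array. The part of these other cells in the differences described next was not tested.

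Of the 26 genes, 22 had an entry in the RefSeq promoter table (GRCm38.p6). The 150 bases directly upstream of the annotated start are shown for the 6 genes whose intensity passed the test in at least one comparison, because they lie in front of the genes that rose in activated cells. Capitals mark matches, on either strand, to motifs bound by factors of proliferating or growing cells: an E2F site (TTTCCCGC, TTTGGCGC, TTTCGCGC or TTTGCCGC), a CCAAT box (CCAAT), the CHR element of cell cycle genes (TTTGAA) and the core of an NRF1 site (GCGCA and GCGC with any one base between them). Each runs 5′ to 3′ on the gene's own strand.
Nup155: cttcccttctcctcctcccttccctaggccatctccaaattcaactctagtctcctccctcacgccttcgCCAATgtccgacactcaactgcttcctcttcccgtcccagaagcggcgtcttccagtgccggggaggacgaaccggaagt
Nup205: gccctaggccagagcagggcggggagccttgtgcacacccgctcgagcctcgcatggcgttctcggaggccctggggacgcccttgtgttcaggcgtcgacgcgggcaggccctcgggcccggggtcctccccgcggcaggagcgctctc
Nup93: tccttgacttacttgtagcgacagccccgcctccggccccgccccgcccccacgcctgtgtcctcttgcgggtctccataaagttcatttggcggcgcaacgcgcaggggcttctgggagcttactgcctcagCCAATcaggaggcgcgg
Nup62: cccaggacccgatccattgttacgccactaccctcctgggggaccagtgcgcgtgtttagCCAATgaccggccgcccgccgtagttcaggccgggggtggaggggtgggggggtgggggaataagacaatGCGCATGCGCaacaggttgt
Nup210: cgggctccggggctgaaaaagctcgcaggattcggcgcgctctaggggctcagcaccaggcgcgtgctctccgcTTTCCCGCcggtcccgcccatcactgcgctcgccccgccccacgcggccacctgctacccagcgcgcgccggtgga
Nup153: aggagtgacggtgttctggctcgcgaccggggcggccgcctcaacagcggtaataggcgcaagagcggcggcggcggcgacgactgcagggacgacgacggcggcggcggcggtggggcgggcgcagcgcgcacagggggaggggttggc
The stretches lie at chr15:8109163-8109312 on the plus strand for Nup155, chr6:35177466-35177615 on the plus strand for Nup205, chr8:94214414-94214563 on the plus strand for Nup93, chr7:44815938-44816087 on the plus strand for Nup62, chr6:91116827-91116976 on the minus strand for Nup210 and chr13:46727850-46727999 on the minus strand for Nup153. Nup93 has 2 annotated starts, of which one is shown. Nup155, Nup93 and Nup62 each held a CCAAT box, Nup62 also an NRF1 match and Nup210 an E2F match, while the windows of Nup205 and Nup153 held none of these letters.

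Over the 250 bases upstream of each start, the 22 genes were compared with the whole table. A CCAAT box was present for 8 of the 22 genes (36.4%) against 37.5% of the 27025 genes in the table, the CHR element for 5 (22.7%) against 18.3%, and an E2F match for Nup210 alone (4.5%) against 2.2%. An NRF1 match was present for Nup107, Nup62 and Nup50 (13.6%), against 4.2% of all genes. These are matches of letters and not measured binding, the numbers of genes are small, and no test was made.

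Nuclear pore genes were brighter on activated arrays than on those of either quiescent state. The median intensity over the 26 genes was 89 to 135 on the quiescent arrays, 31 to 108.5 on the irradiated arrays and 476 to 592 on the activated arrays, so every activated array lay above every other array. An intensity above 100 on all arrays of the state was seen for 19 genes in activated cells, for 8 in quiescent cells and for 1, Pom121, in irradiated cells. The irradiated state had 4 arrays to meet this and the other states 3, so these counts are not alike. Taken array by array, 14, 13 and 12 genes were above 100 on quiescent arrays. The numbers were 8, 8, 14 and 13 on irradiated and 20, 22 and 23 on activated arrays. Near the lower limit were 6 of the 26 genes on each quiescent array, 3 to 8 on the irradiated arrays and 1 or 2 on the activated arrays. The heat map of all 26 genes shows these values array by array.

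**Figure D1:**
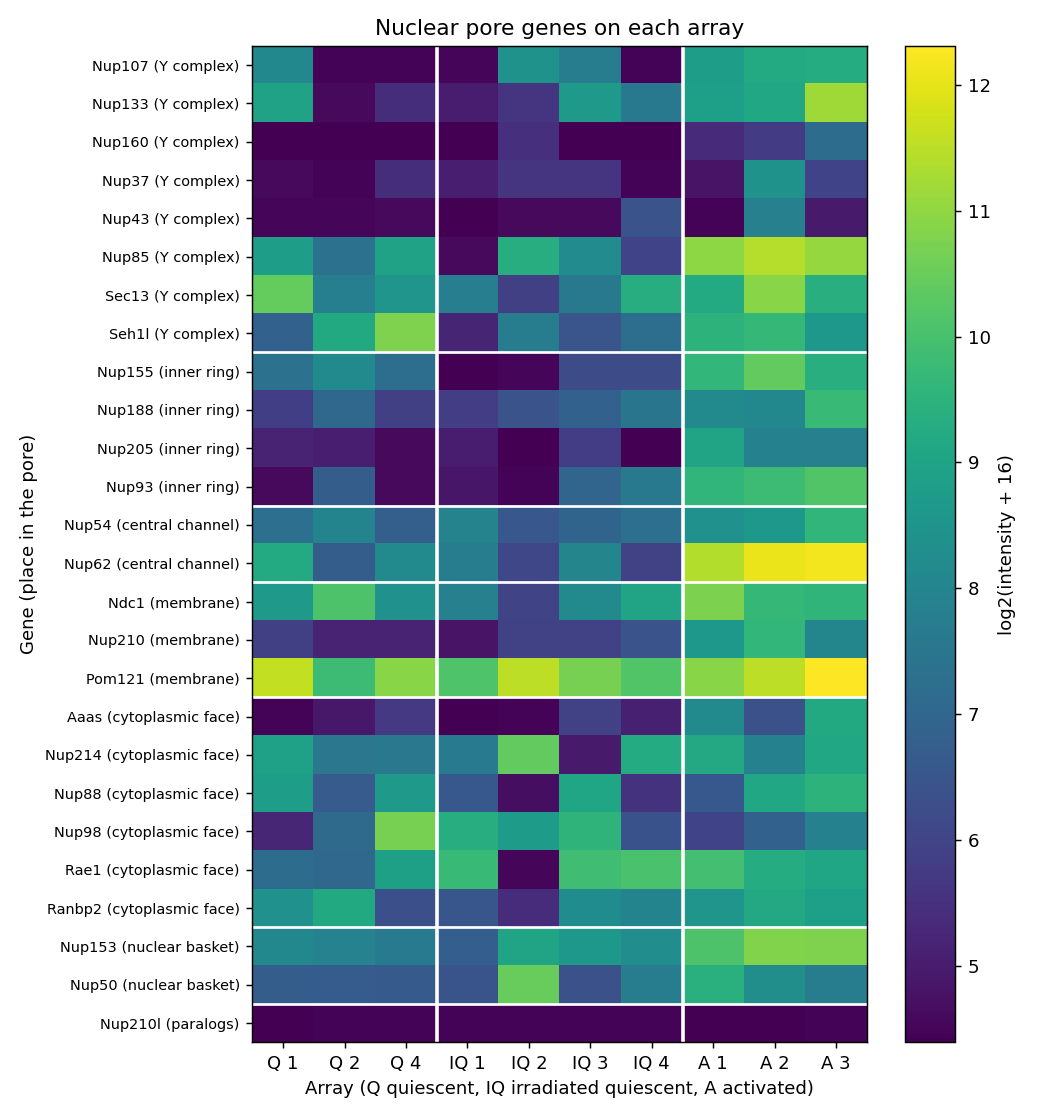
Intensity of each of the 26 nuclear pore genes (rows, grouped by place in the pore) on each of the 10 arrays (columns, grouped by state), coloured by log2(intensity + 16). The activated columns stand out in the rows of the inner ring, of Nup62, Nup85 and Nup153, and Nup210l is dark on all 10 arrays.

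Tested with limma over all genes, 5 of the 26 rose in activated against quiescent cells at an adjusted p under 0.05 and none fell. Over all 18193 genes, the background was 2.90% higher and 3.12% lower, and over the 12426 genes above the lower limit on at least one array it was 4.25% higher. The log2 difference, taken on log2(intensity + 16), was positive for 24 genes and negative for Nup98 and Nup210l, with a median of 1.71 where the median over all genes was 0. It was past 1 for 17 of the 26 genes (65.4%), against 15.1% of all genes. The activated arrays all lay above the quiescent arrays for 14 genes (53.9%), against 9.84% of all genes. Nup210l, the paralog of Nup210, was the one gene near the lower limit on all arrays, at 5 or 6, so 25 genes could show a difference. The remaining 21 genes did not pass the test, and 8 of them had an unadjusted p under 0.05, all higher, so that 13 of 26 genes had one against 16.1% of all genes. The number of genes called moved with single arrays: it was 3 without quiescent replicate 1 or 2 or activated replicate 2, and 2 without quiescent replicate 4 or activated replicate 1 or 3. It was 8 with the dimmest 50% of genes left out or with a gene's probe sets averaged, and 2 with the irradiated arrays left out of the fit.

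The inner ring, the scaffold layer that lines the pore, held the widest shift by median. All 4 measured members (Nup35 was not measured) had activated arrays above every quiescent array, where 9.84% of all genes did. The median log2 difference was 2.85, and 2 members passed the test, where 2.90% of all genes were called higher. Nup205, a large scaffold nucleoporin, had intensities of 20, 17 and 8 on the quiescent arrays, 16, 5, 41 and 5 on the irradiated arrays and 506, 216 and 211 on the activated arrays. Arrays of both quiescent states ran from near the lower limit up to 41, and the activated arrays stood far above them, with no overlap. The log2 difference from quiescent to activated cells was 3.30 ± 0.48 (SE; limma adjusted p = 0.00669), and this call held when any one of the 10 arrays was left out (highest adjusted p 0.0290).

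Nup93, which links the inner ring to the channel nucleoporins, had intensities of 8, 90 and 8 in quiescent, 13, 6, 111 and 178 in irradiated and 758, 884 and 1131 in activated cells. One of 3 quiescent and 2 of 4 irradiated arrays were well above the limit, and all lay below the activated arrays. Its log2 difference from quiescent to activated cells was 4.56 ± 0.97 (limma adjusted p = 0.0358). The call was lost without quiescent replicate 1 or 4, irradiated replicate 3, or any one activated array (highest adjusted p 0.117), at a pseudocount of 1 (0.0762) and with only the 2 groups compared (0.0520). Nup188, the paralog of Nup205, had intensities of 42, 118 and 43, then 41, 69, 99 and 163, then 268, 259 and 840. Its activated arrays lay above all others, but the log2 difference of 2.40 ± 0.61 from quiescent cells did not pass (limma adjusted p = 0.0724).

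Nup155, a scaffold nucleoporin needed for pore assembly, was the one member whose 3 states were fully ordered. Its intensities were 150, 267 and 138 in quiescent, 5, 7, 59 and 57 in irradiated and 774, 1338 and 658 in activated cells. Each irradiated array lay below each quiescent array, and each quiescent array below each activated array. The difference between irradiated and quiescent cells did not pass (limma adjusted p = 0.818), and 1.40% of all genes were lower there without overlap. The rise from quiescent to activated cells, 2.21 ± 0.61 on the log2 scale, did not pass (limma adjusted p = 0.0939), whereas the difference between activated and irradiated cells, 4.47 ± 0.57, did (limma adjusted p = 0.00319).

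Of the channel nucleoporins, Nup62 and Nup54 were measured, and Nup58 is annotated on the array under its former symbol Nupl1. Nup62, a repeat nucleoporin of the central channel, had intensities of 589, 90 and 273 in quiescent, 197, 51, 237 and 45 in irradiated and 2670, 4275 and 4632 in activated cells. The lowest activated array was above every array of both quiescent states. It rose by 3.83 ± 0.80 on the log2 scale over quiescent cells (limma adjusted p = 0.0326), a call lost without quiescent replicate 2 or 4 or any one activated array (highest adjusted p 0.107) and with only the 2 groups compared (0.0860). Its mean intensity was 317 ± 252 (SD, n = 3) in quiescent, 133 ± 99.0 (n = 4) in irradiated and 3859 ± 1045 (n = 3) in activated cells. Nup54, its partner in the channel, had intensities of 139, 234 and 95, then 230, 77, 106 and 139, then 323, 375 and 761. Its activated arrays were all above the others, and its log2 difference of 1.53 ± 0.48 from quiescent cells did not pass (limma adjusted p = 0.146).

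**Figure D2:**
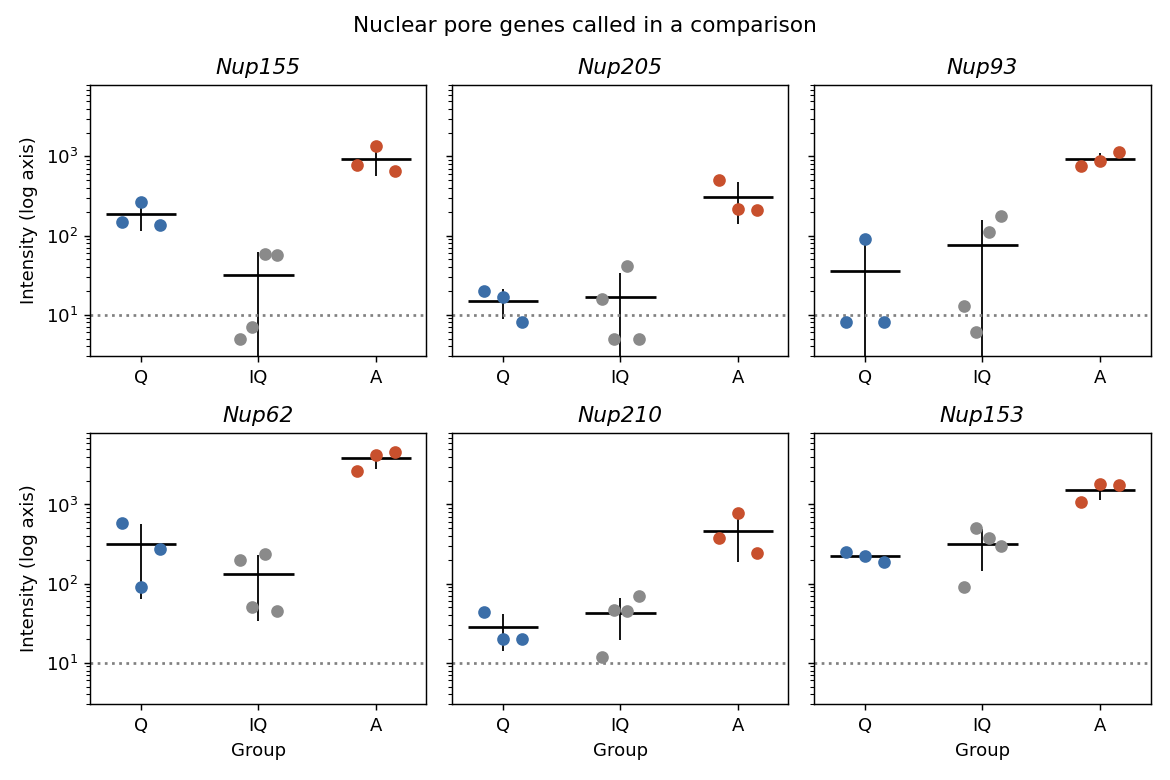
Intensity (log axis) of the 6 nuclear pore genes that passed the test in at least one comparison, in quiescent (Q), irradiated quiescent (IQ) and activated (A) cells, with a point per array, a bar at the mean and a vertical line for the SD, cut at the bottom of the axis (n = 3, 4 and 3 arrays); the dotted line marks an intensity of 10. In each panel the 3 activated points lie above every quiescent and irradiated point, and for Nup155 the irradiated points also lie below the quiescent ones.

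Membrane nucleoporins were split. Nup210, a transmembrane nucleoporin studied for its role in the differentiation of muscle and neural cells, had intensities of 44, 20 and 20 in quiescent, 12, 46, 45 and 69 in irradiated and 375, 774 and 244 in activated cells. Every activated array was above all the others. It rose by 3.34 ± 0.53 on the log2 scale over quiescent cells (limma adjusted p = 0.0102), and the call held without any one array (highest adjusted p 0.0427) but not with only the 2 groups compared in the fit (adjusted p 0.0506). Pom121, which helps anchor the pore in the membrane, had intensities of 3078, 891 and 1903, then 1100, 2898, 1643 and 1123, then 1881, 2908 and 5063. Its states overlapped, with a log2 difference of 0.80 ± 0.59 between activated and quiescent cells (limma adjusted p = 0.646). Ndc1, needed for inserting pores into the membrane, had intensities of 391, 1080 and 320, then 214, 49, 268 and 498, then 1693, 799 and 747. Activated and quiescent arrays overlapped, and the log2 difference of 0.94 ± 0.81 did not pass (limma adjusted p = 0.693).

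At the nuclear basket, Nup153 and Nup50 were measured. Nup153, a basket nucleoporin that also binds chromatin in neural progenitors, had intensities of 254, 224 and 186 in quiescent, 92, 504, 373 and 296 in irradiated and 1069, 1790 and 1748 in activated cells. The activated arrays were all above the others, which were themselves above the lower limit on every array. Its mean intensity was 221 ± 34.1 (SD, n = 3) in quiescent, 316 ± 172 (n = 4) in irradiated and 1536 ± 405 (n = 3) in activated cells. It rose by 2.68 ± 0.55 on the log2 scale over quiescent cells (limma adjusted p = 0.0311). The call was lost without any one quiescent or activated array or irradiated replicate 4 (highest adjusted p 0.107). Nup50, which speeds cargo release from importin alpha, was at 90, 87 and 83 in quiescent cells and 662, 297 and 193 in activated cells. These did not overlap, but irradiated replicate 2 reached 1402 while the other irradiated arrays were at 72, 66 and 199. The log2 difference of 1.79 ± 1.06 between activated and quiescent cells did not pass (limma adjusted p = 0.549). In the other probe sets of Nup50, activated and quiescent arrays overlapped, with differences of 1.36 for 1428328_at and 2.13 for 1422719_s_at.

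By the brightest probe set, none of the 8 members of the Y complex, the coat of the pore's outer rings, passed limma's test in activated against quiescent cells. Over all genes, 2.90% were called higher. An unadjusted p under 0.05 was seen for 4 members, where 16.1% of all genes had one. All 8 log2 differences were positive, with a median of 1.65. Nup85 had intensities of 432, 147 and 477 in quiescent, 8, 620, 280 and 47 in irradiated and 1964, 2770 and 2129 in activated cells. The activated arrays lay above all others, and the irradiated arrays ranged from 8 to 620. The log2 difference from quiescent cells was 2.79 ± 1.18 (limma adjusted p = 0.302). Nup107 was at 258, 6 and 6 in quiescent, 7, 332, 195 and 6 in irradiated and 433, 588 and 607 in activated cells. Its activated arrays also lay above all others, at a log2 difference of 3.44 ± 1.41 from quiescent cells (limma adjusted p = 0.283). Nup160 was near the lower limit on all quiescent arrays and at 24, 38 and 131 in activated cells, with irradiated replicate 2 at 29 and the other irradiated arrays at 5. Its log2 difference was 1.70 ± 0.51 (limma adjusted p = 0.121).

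Nup133, whose loss in mice disturbs neural differentiation, had intensities of 483, 8 and 27, then 16, 32, 394 and 176, then 446, 552 and 2313, so that one quiescent array lay inside the activated range (log2 difference 3.40 ± 1.43, limma adjusted p = 0.301). Sec13, shared with the vesicle coat of the endoplasmic reticulum, was at 1375, 209 and 348, then 204, 43, 178 and 631, then 585, 1882 and 634, with overlap between all states. Seh1l, shared with a regulator of mTORC1, was at 100, 572 and 1757, then 21, 200, 74 and 138, then 717, 804 and 380. Quiescent replicate 4 was the highest array of all for this gene. Nup37 and Nup43, small subunits of the complex, were at most at 27 and 8 in quiescent cells and at 12, 338 and 47, and 6, 214 and 15, in activated cells, where a single array, activated replicate 2, was high for both.

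**Figure D3:**
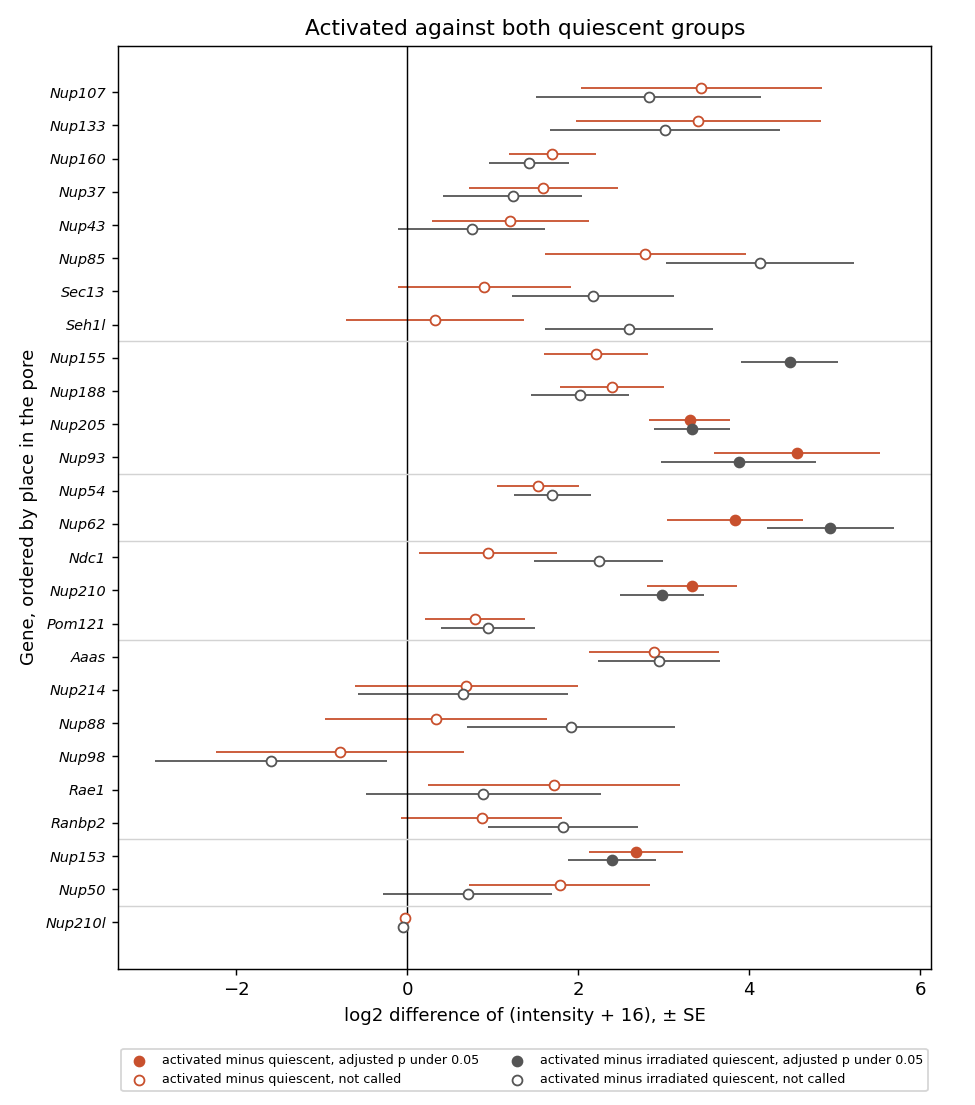
Log2 difference, on log2(intensity + 16), of each of the 26 nuclear pore genes for activated minus quiescent cells (red) and activated minus irradiated quiescent cells (grey), with bars for the standard error; filled points passed limma's test at an adjusted p under 0.05. In both comparisons the values lie to the right of 0 for 24 genes, and Nup98 and Nup210l lie to the left.

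By the brightest probe set, none of the 6 measured members of the cytoplasmic face passed limma's test in activated against quiescent cells. Over all genes, 2.90% were called higher. Aaas alone had an unadjusted p under 0.05 by this probe set, as 16.1% of all genes did. The median log2 difference of the 6, again by the brightest probe set, was 0.78, the lowest of the layers with more than 1 measured gene. Nup214 probe set 1456503_at passed when tested on its own, as described below. Aaas, the nucleoporin ALADIN mutated in triple A syndrome, had intensities of 6, 14 and 36 in quiescent, 5, 6, 45 and 18 in irradiated and 271, 66 and 577 in activated cells. The activated arrays lay above all others, with a log2 difference of 2.89 ± 0.76 from quiescent cells (limma adjusted p = 0.0828). It passed when activated replicate 2, the lowest of the 3, was left out (adjusted p 0.0237). Rae1, an mRNA export factor that also acts in the mitotic checkpoint, was at 131, 119 and 458 in quiescent, 835, 7, 935 and 1044 in irradiated and 969, 611 and 529 in activated cells. Activated and quiescent arrays did not overlap, irradiated arrays lay on both sides, and the log2 difference of 1.72 ± 1.47 did not pass (limma adjusted p = 0.693). In Rae1 probe set 1444256_at activated and quiescent arrays overlapped, with a difference of 0.25, and 1459822_at was at 5 on every array.

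Nup98, the partner of Rae1, had a negative difference in its brighter probe set. It was at 22, 124 and 1630 in quiescent, 632, 407, 728 and 67 in irradiated and 48, 99 and 218 in activated cells, with quiescent arrays both below and above the activated ones. The log2 difference from quiescent to activated cells was -0.78 ± 1.45 (limma adjusted p = 1.0), and it turned positive, at 0.65, when the gene's 2 probe sets were averaged. Ranbp2, a SUMO ligase on the cytoplasmic filaments, was at 323, 568 and 65 in quiescent and 353, 562 and 445 in activated cells, which overlap. Nup214 and Nup88, which bind each other, also overlapped between these states. Nup214 was at 473, 171 and 175 against 556, 218 and 536, and Nup88 at 433, 86 and 396 against 79, 533 and 714.

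Between irradiated and unirradiated quiescent cells, none of the 26 genes passed limma's test in either direction. Over all genes, limma called 2 of 18193 (0.0110%), a number that was 14, 13 and 46 without quiescent replicate 1, 2 or 4, 0 without irradiated replicate 1 or 2 and 1 without activated replicate 2 or 3; no nuclear pore gene was among them in any of these fits. One nuclear pore gene had an unadjusted p under 0.05, where 3.97% of all genes did. The log2 difference was positive for 14 and negative for 12 genes, with a median of 0.03. It was past 1 for Nup50, whose irradiated replicate 2 was at 1402 (7.24% of all genes were past 1), and past -1 in the other direction for 7 genes (7.39% of all genes), among them all 5 with the smallest p. Nup155, described above at 150, 267 and 138 against 5, 7, 59 and 57, was the gene with the unadjusted p under 0.05 and the only one whose arrays did not overlap, where 1.40% of all genes were lower without overlap. Its log2 difference was -2.26 ± 0.57 (limma unadjusted p = 0.00468, adjusted p = 0.818). Its second probe set, 1418727_at, was near the lower limit on all arrays of both states, so it could not show a fall.

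By the brightest probe set, the other 4 genes of smallest p were also lower in the irradiated state, with overlap. Seh1l differed by -2.27 ± 0.98 (limma adjusted p = 0.965), and its second brightest probe set, 1419967_at, by -2.42 ± 0.83, at 160, 859 and 1424 in quiescent and 29, 188, 72 and 185 in irradiated cells. Its other 5 probe sets differed by -0.42 to -0.02, among them 1424201_a_at by -0.21 and 1424202_at by -0.12, and the mean of its probe sets by -0.84. Ndc1 differed by -1.30 ± 0.75, Sec13 by -1.27 ± 0.95 and Nup62 by -1.12 ± 0.74, each at a limma adjusted p of 0.965. For Ndc1 and Nup62 the sign turned with the mean of a gene's probe sets, to 0.51 and 0.036. The other probe sets of Ndc1 were higher in the irradiated state, 1424173_at by 1.47 ± 0.62 and 1460353_at by 1.34 ± 0.97. Those of Nup62 differed by 0 to 0.76. The irradiated arrays varied more among themselves for the nuclear pore genes than the other states did. The median SD of log2(intensity + 16) was 1.10 over the 4 irradiated arrays, 0.84 over the quiescent and 0.70 over the activated arrays, and it was 1.04, 0.90 and 0.73 for genes of the same range of mean intensity.

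Against irradiated quiescent cells, 6 of the 26 genes rose in activated cells and none fell, where 3.41% of all genes rose and 3.69% fell. The 6 were the 5 that rose over quiescent cells and Nup155. Both comparisons share the activated arrays, so they are not independent. The median log2 difference was 2.10, against 0 over all genes, and 15 genes had activated arrays all above the irradiated arrays (57.7%, against 8.23% of all genes). The difference was 4.95 ± 0.74 for Nup62 (limma adjusted p = 0.00722), 3.88 ± 0.91 for Nup93 (limma adjusted p = 0.0463), 3.33 ± 0.45 for Nup205 (limma adjusted p = 0.00412), 2.98 ± 0.49 for Nup210 (limma adjusted p = 0.0110) and 2.40 ± 0.51 for Nup153 (limma adjusted p = 0.0331). The calls of Nup62, Nup155, Nup205 and Nup210 held without any one array. That of Nup153 was lost without any one quiescent or activated array or irradiated replicate 3 or 4 (highest adjusted p 0.121) and with only the 2 groups compared (0.102), and that of Nup93 without quiescent replicate 1 or 4, irradiated replicate 1, 2 or 3, or any one activated array (highest adjusted p 0.135), at a pseudocount of 1 (0.103) and with only the 2 groups compared (0.0831).

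The next genes in this comparison were Aaas, at 2.94 ± 0.71 (limma adjusted p = 0.0534), Nup54 at 1.70 ± 0.45 (adjusted p 0.0739), Nup85 at 4.13 ± 1.10 (adjusted p 0.0753), Nup188 at 2.02 ± 0.57 (adjusted p 0.0929) and Nup160 at 1.42 ± 0.47 (adjusted p 0.154), none of which passed. Aaas passed without activated replicate 2 (adjusted p 0.0163) and Nup85 without irradiated replicate 2 (adjusted p 0.0326). Nup98, at -1.59 ± 1.35 (limma adjusted p = 0.678), and Nup210l were the 2 genes with a negative difference, and that of Nup98 became 0.18 with its probe sets averaged.

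The gene values above rest on one probe set per gene, the brightest. When each of the 67 probe sets was tested on its own among all 45037, a choice made after the data were seen, 10 were higher in activated than quiescent cells, in 7 genes, and none lower, where 2.29% of all probe sets were called higher and 2.14% lower. For Nup62, 3 of its 5 probe sets passed, one missed at an adjusted p of 0.0702, and 1448150_at was at 5 on every array. The added genes were Nup133 and Nup214, whose brightest probe sets had not passed. Nup133 probe set 1451111_at was at 5 on every quiescent and irradiated array and at 134, 145 and 195 in activated cells; the values of both quiescent states are at the floor with no spread, so this probe set gives only a bound and its test is not given. The other called one, 1423787_at, was at 32, 21 and 14 in quiescent and 259, 386 and 615 in activated cells (log2 difference 3.45 ± 0.52, limma adjusted p = 0.0103). Nup214 probe set 1456503_at was at 11, 10 and 20 in quiescent, 12, 21, 22 and 20 in irradiated and 241, 129 and 191 in activated cells (log2 difference 2.75 ± 0.23, limma adjusted p = 7.49e-04). The brighter Nup214 probe set differed by 0.69 ± 1.31, so the probe sets of this gene disagree in size, and those of Nup98 in sign, as the plot of all probe sets shows.

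**Figure D4:**
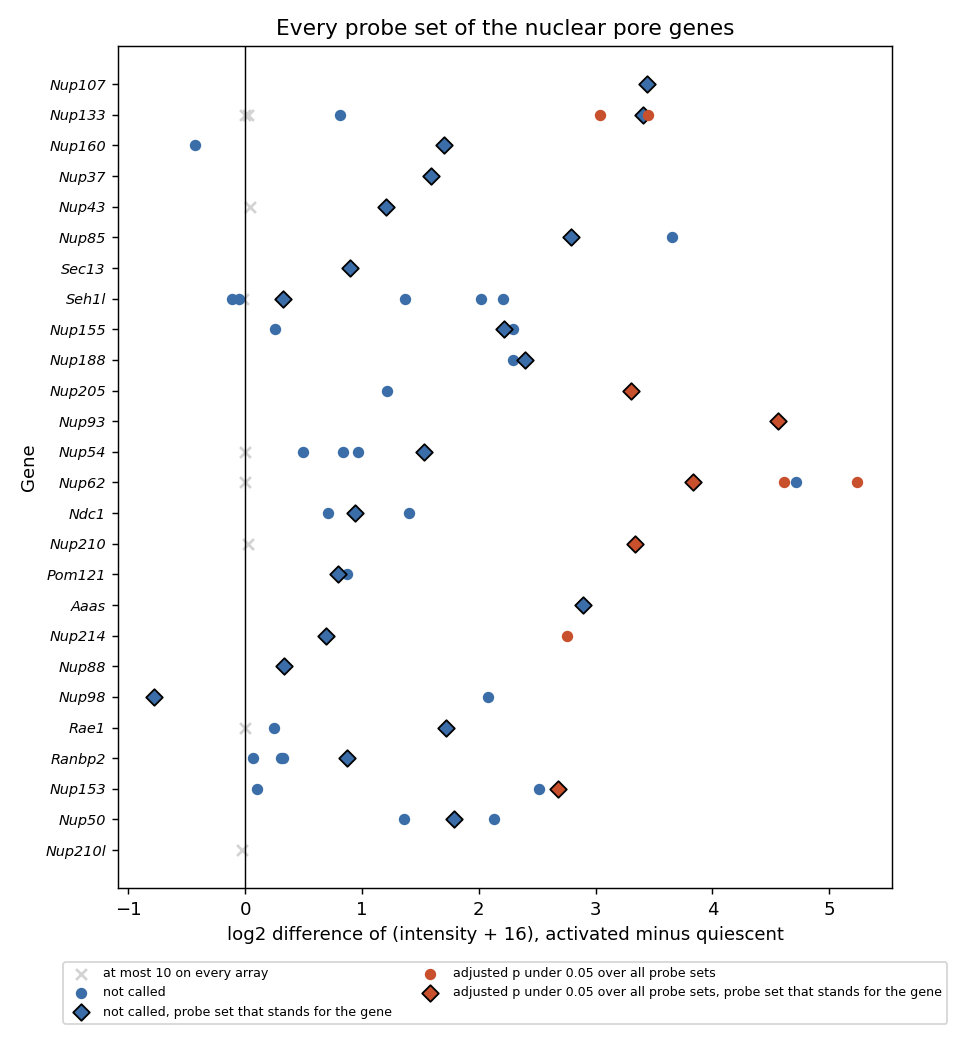
Log2 difference between activated and quiescent cells, on log2(intensity + 16), for each of the 67 probe sets of the nuclear pore genes, with a row per gene; diamonds mark the probe set that stands for the gene, red marks an adjusted p under 0.05 over all probe sets, and crosses mark probe sets near the lower limit on all arrays. The 5 probe sets of Nup62 include 4 far to the right of 0 and 1 at 0, and those of Nup98 lie at -0.78 and 2.08.

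Against irradiated cells, 12 probe sets in 8 genes were higher in activated cells and none lower, where 2.68% of all probe sets were called higher and 2.45% lower. Nup155 was called in both probe sets that were above the lower limit in every activated array, and Seh1l in 1424202_at, at 18, 5, 12 and 5 in irradiated and 125, 51 and 205 in activated cells. Nup93, with a single probe set, missed the threshold here at an adjusted p of 0.0583.

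Other genes of nuclear transport were read from the same fit, and the count of each list stands against the 2.90% of all genes called higher and the 3.12% called lower. Of 17 importins, which carry cargo inward, 1 passed as higher from quiescent to activated cells (5.88%) and none as lower. With Kpna2 counted, 6 importins had an unadjusted p under 0.05, 4 of them higher, where 16.1% of all genes had one. The activated arrays lay above all quiescent arrays for 8 importins (47.1%, against 9.84% of all genes). They lay below them for Ipo13 and Snupn, as they did for 9.47% of all genes. Kpna2, the importin alpha that passed, was at 41, 24 and 160 in quiescent, 37, 22, 92 and 144 in irradiated and 2143, 2990 and 2079 in activated cells, with no overlap (log2 difference 5.02 ± 0.69, limma adjusted p = 0.00536). The importins' median difference was 1.46. Of 7 exportins, 1 passed (14.3%): Cse1l, which returns importin alpha to the cytoplasm, rose by 3.06 ± 0.50 (limma adjusted p = 0.0117), the median being 2.05. All 7 differences were positive. Of 6 measured Ran cycle genes, 2 passed (33.3%), Ran itself and its cofactor Ranbp1. Ran was at 2888, 2610 and 3795 in quiescent, 3584, 3601, 2416 and 3969 in irradiated and 8986, 10821 and 10505 in activated cells (log2 difference 1.71 ± 0.21, limma adjusted p = 0.00316), and Ranbp1 rose by 5.43 ± 0.91 (limma adjusted p = 0.0133).

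Of 17 measured mRNA export factors, 1 passed (5.88%, against 2.90% of all genes and 4.25% of those above the lower limit): Sarnp rose by 4.12 ± 0.80 (limma adjusted p = 0.0247), and the median difference was 1.88. None of 8 further pore components and partners, Nupl1 and Nupl2 among them, passed limma's test (median 0.66). Nor did any of them have an unadjusted p under 0.05, where 16.1% of all genes had one. Of the 14 genes of the nuclear envelope and lamina list, 3 passed as higher (21.4%, against 2.90% of all genes) and 2 as lower (3.12% of all genes). Lmnb1, a B-type lamin, was at 9, 20 and 16 in quiescent, 9, 96, 19 and 25 in irradiated and 2722, 2054 and 2846 in activated cells and rose by 6.37 ± 0.51 (limma adjusted p = 4.39e-04). Lmnb2, also a B-type lamin, did not pass (1.19 ± 0.68, limma adjusted p = 0.518). Tmpo, a lamin-binding membrane protein, rose by 5.34 ± 0.87 and Banf1, which bridges chromatin and envelope, by 5.21 ± 0.70. Syne1, the nesprin that links the envelope to the cytoskeleton, fell, from 356, 1154 and 608 in quiescent and 472, 1605, 703 and 976 in irradiated to 20, 16 and 40 in activated cells (log2 difference -4.01 ± 0.55, limma adjusted p = 0.00514), and so did Tor1aip1 (-2.52 ± 0.55, limma adjusted p = 0.0409). Of all these calls, those of Kpna2, Cse1l, Ran, Lmnb1, Tmpo, Banf1 and Syne1 held without any one array, though Cse1l missed the threshold with only the 2 groups compared in the fit (adjusted p 0.0544). Ranbp1 was lost without quiescent replicate 1 or 2 or activated replicate 2 (highest adjusted p 0.0522), Sarnp without quiescent replicate 1 or 4 or activated replicate 2 or 3 (0.0905), and Tor1aip1 without any one array other than activated replicate 2 (0.127). Sarnp also missed it at a pseudocount of 1 (0.0506), and Tor1aip1 with only the 2 groups compared (0.166) or with array weights (0.0806).

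**Figure D5:**
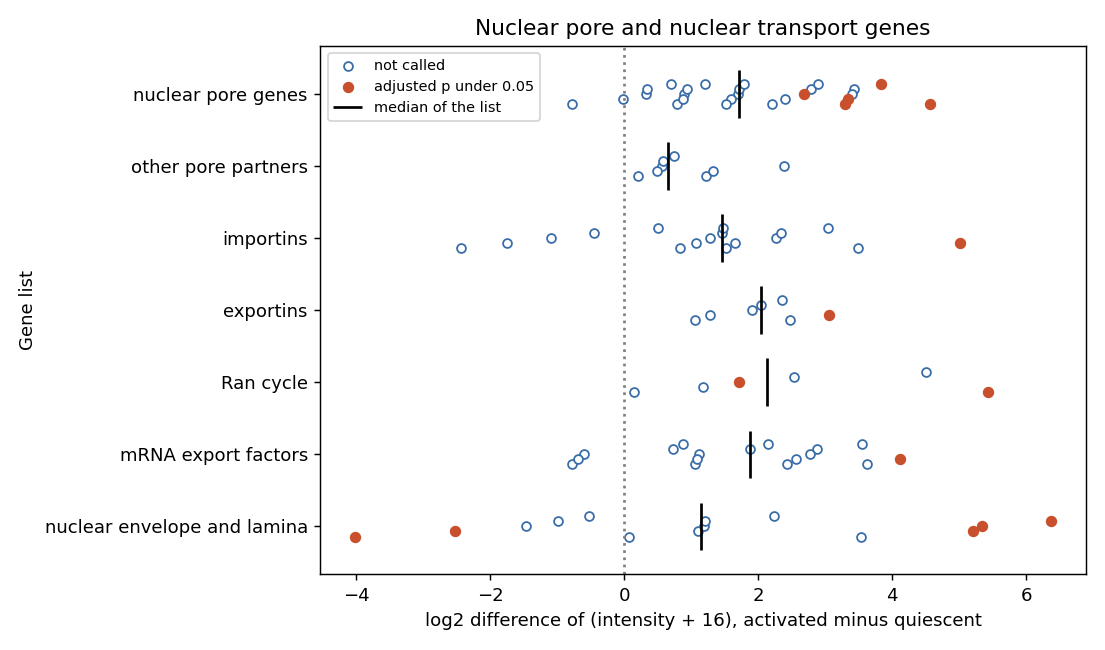
Log2 difference between activated and quiescent cells, on log2(intensity + 16), of every measured gene of the nuclear pore, the transport lists and the envelope list, with a point per gene and the median of each list marked; filled points passed limma's test. All medians lie above 0, and the envelope list alone has genes called lower.

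Against irradiated cells, Kpna2, Cse1l, Ran, Ranbp1, Sarnp, Lmnb1, Tmpo and Banf1 passed again in the same direction, Xpo4 (3.54 ± 0.71, limma adjusted p = 0.0252) and Syne2 (3.71 ± 0.84, limma adjusted p = 0.0415) were added, and Syne1 and Tor1aip1 were lower. Syne2 and Tor1aip1 are named after their values were seen. Kpna2, Ran, Lmnb1, Banf1 and Syne1 passed here without any one array. Sarnp did not pass without activated replicate 2 or 3, nor Tmpo without irradiated replicate 1 or any one activated array, nor Ranbp1 without these or irradiated replicate 3, with a highest adjusted p of 0.0683, 0.0826 and 0.0839. Cse1l did not pass without quiescent replicate 1, irradiated replicate 1, 3 or 4 or any one activated array, and Xpo4 not without irradiated replicate 1, 2 or 3 or activated replicate 1 or 3 (0.134 and 0.0899). Syne2 did not pass without quiescent replicate 2 or any one irradiated or activated array, and Tor1aip1 not without any one array other than activated replicate 2 (0.137 and 0.114). Sarnp also missed the threshold with only the 2 groups compared (0.0555), Xpo4 at a pseudocount of 1 (0.0540), Syne2 at a pseudocount of 1 (0.0562) and with quantile normalization (0.0514), and Tor1aip1 with only the 2 groups compared (0.108) or with array weights (0.0601). Between irradiated and quiescent cells no gene of these lists passed. Of the 69 genes measured, 3 had an unadjusted p under 0.05 by limma, where 3.97% of all genes did; they were 1 each of the importins, exportins and mRNA export factors.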

How the data were processed

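RNA of sorted cells was amplified with the NuGEN Ovation Pico WTA system, labelled with biotin and hybridised to MOE 430 2.0 arrays, per the labels' protocols. The deposited table holds one intensity per probe set and array, whole numbers from 3 to 34883. The software and scaling by which the authors made these intensities were not stated (not given in the sources used here). The labels describe 12 samples; 2 columns of values, quiescent replicate 3 and activated replicate 4, were empty and not used, leaving 10 arrays, whose number limits the precision. Scan dates were not used.

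Of 45037 probe sets, 34945 had one gene symbol in the platform annotation, 932 several and 9160 none. For each of 18193 genes the probe set of highest mean over all arrays was used. Intensities were taken as log2(intensity + 16) with no filter or further normalization. Groups were compared with limma 3.58.1 (R 4.3.3): lmFit with one mean per group over all arrays (7 residual degrees of freedom) and eBayes, two-sided, adjusted over all genes by Benjamini-Hochberg; called means an adjusted p under 0.05. The procedure was tested on simulated data with normal noise and no lower limit. That test cannot show the error rate for genes near the limit. No arrays of a group were near-identical: at most 2.72% of brighter probe sets had equal values. Differences on this scale understate the change of weak genes.

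The members, lists and the rule for named genes were chosen with earlier results of these data known. Values on every array are given for nuclear pore genes called in any comparison, the 5 of smallest p among those not called in each comparison, and the brightest of each pore layer, and for some further members named after their values were seen. Upstream sequences come from RefSeq (GRCm38.p6); start positions there carry no link to the array. Alternatives were other pseudocounts (1 and 64), quantile normalization, leaving out the dimmest 50% of genes, averaging probe sets, trend and robust moderation, array weights, only the groups compared, the replicate number as a block, leaving out each array, and, chosen after seeing the data, each probe set on its own.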

Additional observations from a re-analysis of the deposited data

Results flagged for a closer look

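In the irradiated group, the one group of 4 arrays, a single array stood far from the other 3 for 3 of the 26 genes, with a gap beyond Dixon's critical value on the log2 scale. Chance flags about 1 in 20 such groups where values are measured; for Nup160 and Nup43 the other arrays lie near the lower limit, where values have no order, so that rate does not hold for them. Nup160 was at 29 on irradiated replicate 2 and at 5 on the others. Nup43 was at 70 on irradiated replicate 4 and at 5 to 8 on the others. Rae1 was at 7 on irradiated replicate 2 and at 835 to 1044 on the others; without that array, its difference between activated and irradiated cells turned from 0.89 to -0.45 on the log2 scale, neither called.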

How the results depend on the processing

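The number of nuclear pore genes called higher in activated than quiescent cells was 5 and stayed within 1.5 times of it under pseudocounts, quantile normalization, trend moderation and array weights. It was 8 without the dimmest 50% of genes and with probe sets averaged, 2 with only the groups compared, and 2 to 5 with one array left out. The median difference of 1.71 became 2.12 with a pseudocount of 1. Over all genes, 1095 were called, 694 with only the groups compared. Against irradiated cells, the median of 2.10 became 1.54 with probe sets averaged and ran from 1.68 to 2.37 with one array left out, and the count of 6 was 4 with only the groups compared. Between irradiated and quiescent cells, 2 genes in all were called, 4 with a pseudocount of 1, 1 under quantile normalization, trend moderation or array weights, 0 with only the groups compared, 7 with each probe set on its own, and 0 to 46 with one array left out; no nuclear pore gene was called in any of these. The cause was not tested, except that fewer genes or arrays enter where some are left out.

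Same-numbered arrays showed no shared deviation: their deviations correlated at -0.0278 to 0.0216 over 8 pairs, and 3 of 10 arrays correlated best with their own number. These correlations cannot show whether same-numbered samples were collected or processed together, which the labels do not state. With the replicate number as a block, activated against quiescent cells gave 459 genes and 0 nuclear pore genes called, activated against irradiated cells 710 and 3, and irradiated against quiescent cells 0, and the sign of Nup88 between activated and quiescent cells turned to -0.46.

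Signs turned as follows among uncalled genes; between irradiated and quiescent cells the alternatives were run for the 6 genes named there. With probe sets averaged, Nup98 became 0.65 against quiescent and 0.18 against irradiated cells, and between irradiated and quiescent cells Ndc1 became 0.51 and Nup62 0.036. With one array left out, activated minus quiescent ran from -0.72 to 1.25 for Seh1l, -0.35 to 1.25 for Nup88 and -2.002 to 0.72 for Nup98, and activated minus irradiated from -0.45 to 1.39 for Rae1, -0.38 to 1.43 for Nup214 and -0.29 to 1.40 for Nup43. Intensities of at most 10 carry no order, which limits Nup160, Nup43 and Nup210l in quiescent cells.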
